A study of Mus musculus with 13 samples.

Results

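Sox9 peaks were examined around the 4 genes of the Indian hedgehog and PTHrP loop, namely Ihh, Ptch1, Pthlh and Pth1r. Members were the peaks whose centre lay in a fixed mm9 window around each gene: chr1:74900000-75080000 for Ihh, chr13:63550000-63760000 for Ptch1, chr6:147080000-147320000 for Pthlh and chr9:110570000-110710000 for Pth1r. The windows together cover 770 kb and held 23 of the 45096 peaks listed, 10 of the 27656 rib peaks and 13 of the 17440 nasal peaks. Rib chondrocytes came from untreated wild-type ICR mice at postnatal day 1, and nasal septum chondrocytes from untreated wild-type ICR mice at embryonic day 17.5. Both were released from cartilage by enzyme digestion and precipitated with the same Sox9 antibody. The series holds 13 libraries, of which 2 are Sox9 libraries, 1 per tissue, so no replicate check was possible, and tissue and stage differ together. The lists give positions alone, so read depth and the strength of each peak are unknown, and every interval below covers counting error only. The authors divided the rib peaks into Class I and Class II, by a rule that the sources used here do not give. With no mm9 annotation used, the chondrocyte label was not checked against marker genes, and no peak was assigned to a promoter, exon or intron.

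In growth cartilage, Ihh is the hedgehog ligand made by chondrocytes that leave the cell cycle and begin to enlarge. It binds Patched, the membrane receptor encoded by Ptch1, which restrains Smoothened until the ligand arrives, and Ptch1 is itself a transcriptional target of the pathway. Hedgehog signalling raises PTHrP, the secreted peptide encoded by Pthlh, near the ends of the bone. PTHrP acts through its G protein-coupled receptor, encoded by Pth1r, to hold chondrocytes in proliferation and to limit the cells that make Ihh. Sox9, the HMG-box factor precipitated here, is required for chondrocytes to form and is phosphorylated downstream of PTHrP in mouse chondrocytes.

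The sequences under the peaks could not be read, because no mm9 genome was used. The promoters of 4 of 4 members were in the RefSeq promoter table of GRCm38.p6, with 6 promoters in all, 3 of them for Pth1r. Each covers 250 bases before to 50 bases after a start site. They were searched on both strands for the SOX letters AACAAT and ACAAAG, for the inverted pair ACAAT and ATTGT with 2 to 6 bases between, and for the GLI letters GACCACCCA. GLI proteins are the transcription factors of the hedgehog pathway. AACAAT, the inverted pair and GACCACCCA were found in none of the 6, and they occurred in 10.7%, 0.161% and 0.253% of all 32851 promoters. ACAAAG was found in 1 member promoter, that of the first Pth1r start site in the table, and in 18.7% of all promoters. The shorter SOX core ACAAT, which lies inside AACAAT, was found in the Ihh promoter alone among the members and in 31.0% of all promoters. These 2 promoters are shown because they hold the only matches, in capitals. Only the 250 bases before the start are printed, 5′ to 3′ along the gene's strand. The Ihh promoter lies at chr1:74951673-74951922 and that of Pth1r at chr9:110747146-110747395, both on the minus strand of GRCm38.p6. These positions cannot be set beside the mm9 peak positions.
Ihh: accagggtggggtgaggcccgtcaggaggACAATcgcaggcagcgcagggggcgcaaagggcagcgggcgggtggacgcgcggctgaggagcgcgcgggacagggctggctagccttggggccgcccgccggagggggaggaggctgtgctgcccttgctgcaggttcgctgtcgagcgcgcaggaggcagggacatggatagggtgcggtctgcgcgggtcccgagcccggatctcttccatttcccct
Pth1r: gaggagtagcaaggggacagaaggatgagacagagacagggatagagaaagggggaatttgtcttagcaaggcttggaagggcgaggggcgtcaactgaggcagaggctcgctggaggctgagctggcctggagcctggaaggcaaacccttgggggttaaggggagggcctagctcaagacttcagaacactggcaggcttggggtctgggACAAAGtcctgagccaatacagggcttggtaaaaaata

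In Ihh the ACAAT match begins 221 bases before the start site, and in Pth1r the ACAAAG match begins 38 bases before it. A match is a description of the letters and not a site of binding. Guanine and cytosine made up 72.0% of the bases printed for Ihh and 56.0% of those for Pth1r, against a median of 52.4% over all promoters. The other member promoters ranged from 65.6% to 78.4%. The shares over all promoters were not matched for base composition, and its bearing on the motif matches was not tested. Of 22 other genes of the pathway, 18 were in the table. They had 24 promoters. AACAAT was found in 4 of the 24, against 10.7% of all promoters, and these belonged to 3 genes, Gnas, which encodes the stimulatory G protein subunit that Pth1r couples to, Pth, which encodes parathyroid hormone, and Sufu, an inhibitor of GLI proteins. ACAAAG was found in 4 of the 24, against 18.7% of all promoters, and these belonged to 3 genes, Pth, Smo, which encodes Smoothened, and Mef2c, a transcription factor of hypertrophic chondrocytes. The shorter core ACAAT was found in 9 of the 24 promoters, from 8 genes, against 31.0% of all promoters. The inverted pair and GACCACCCA were found in none of the 24. Those genes were not placed among the peaks.

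The number of Sox9 peaks differed among the 4 windows, and rib counts as high were common in windows of the same width. The Ptch1 window held 5 rib peaks and 6 nasal peaks, and the Ihh window 4 rib peaks and 2 nasal peaks. The Pth1r window held 1 rib peak and 4 nasal peaks, and the Pthlh window held no rib peak and 1 nasal peak. The windows differ in width, so counts were set beside those of all windows of the same width laid end to end along the 19 autosomes. Unlike the 4 windows, these were not chosen around genes. No nasal peak lay in 52.1% of those of the Ptch1 width and 59.9% of those of the Pth1r width. For rib peaks, 19.2% of such windows held at least as many as the Ptch1 window, 21.7% as the Ihh window and 50.6% as the Pth1r window. For nasal peaks, the shares were 6.98% for Ptch1, 8.77% for Pth1r, 28.9% for Ihh and 50.9% for Pthlh. The Ptch1 and Pth1r windows thus lay above the 90th percentile of same-width windows in the nasal list and not in the rib list. For Ptch1 that percentile was 5 nasal peaks, and 2 of the 6 nasal peaks there shared 151 bp with each other. The Ptch1 window lay above it only with both of those counted. The fullest windows of the Ptch1 width held 38 rib peaks and 24 nasal peaks. Over the 4 windows together there were 1.30 rib peaks and 1.69 nasal peaks per 100 kb, against 1.14 and 0.721 per 100 kb over the autosomes.

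**Figure D1:**
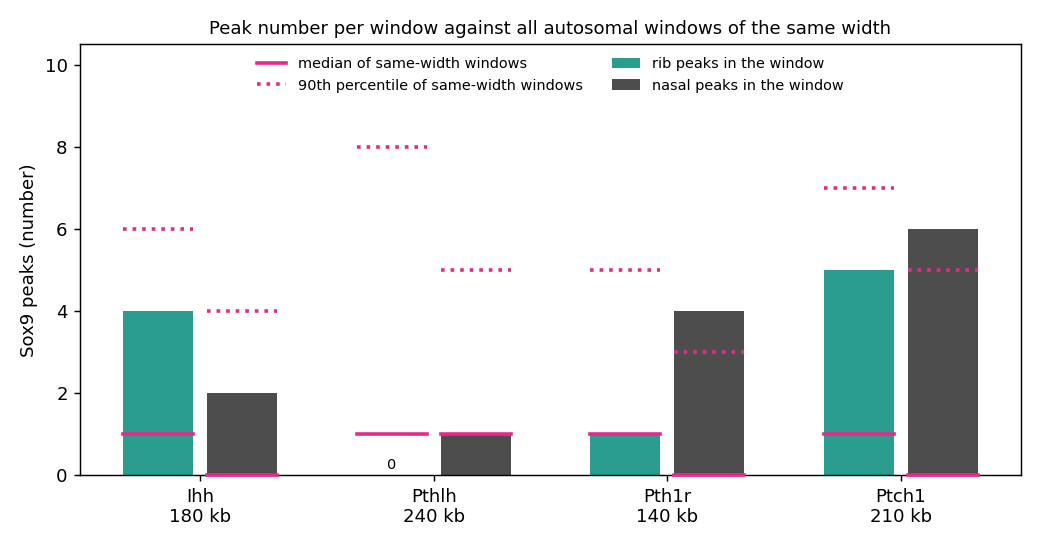
Bars give the number of rib (left) and nasal (right) Sox9 peaks in each window, with the window's width under its gene name. The solid line is the median and the dotted line the 90th percentile of all autosomal windows of the same width. The nasal bars of Pth1r and Ptch1, at 4 and 6 peaks, stand above the dotted line, and no rib bar does. The Ptch1 nasal bar counts 2 peaks that share 151 bp.

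The nasal list, although shorter, supplied more of the members than the rib list. Rib peaks made up 10 of 23 peaks in the windows, or 43.5% (95% exact binomial interval 23.2% to 65.5%), against 61.3% of all listed peaks, which lies inside that interval. By window, the rib share was 4 of 6 at Ihh, 5 of 11 at Ptch1, 1 of 5 at Pth1r and 0 of 1 at Pthlh. No difference between the tissues can be told from such counts.

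**Figure D2:**
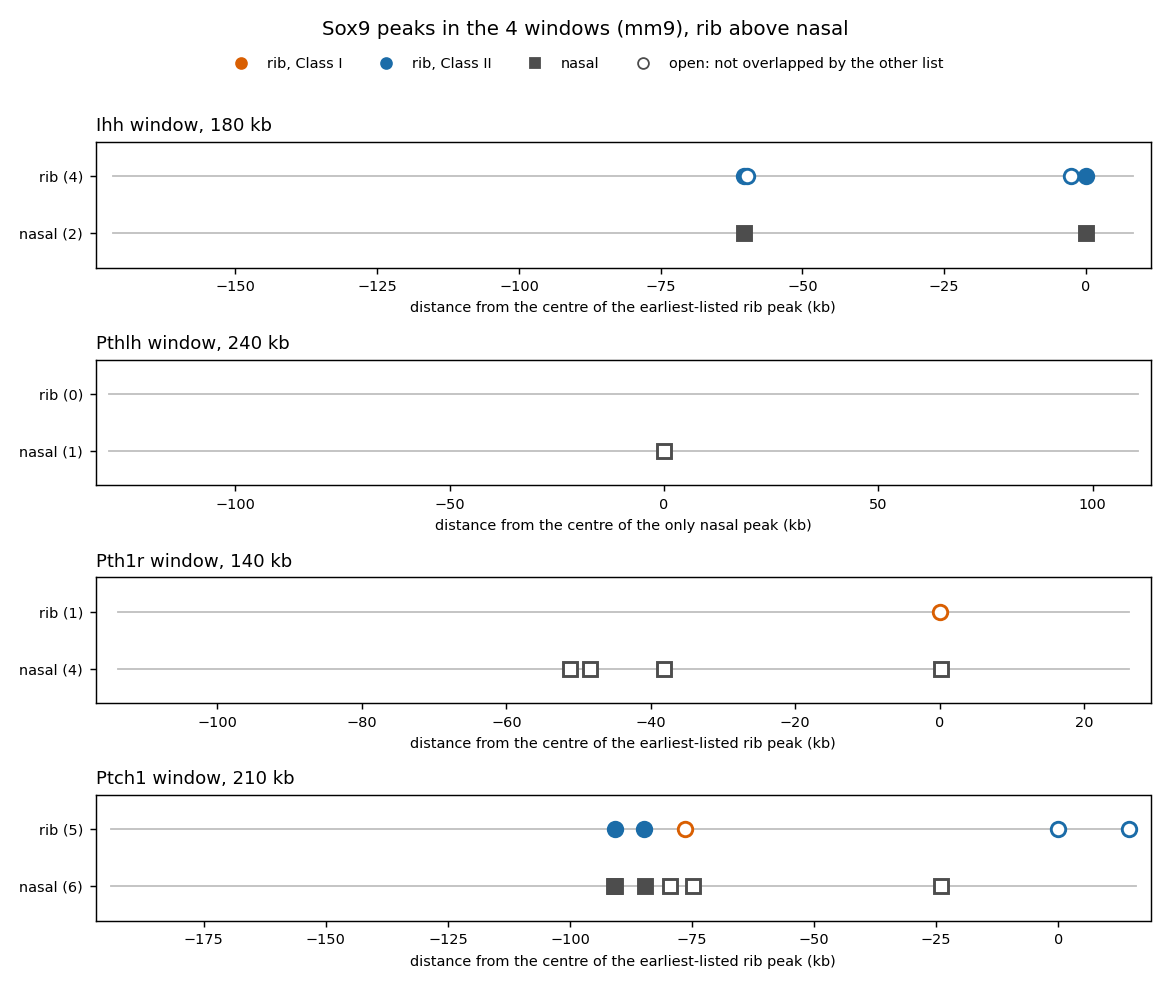
Each panel is 1 window, with rib peaks (circles) above nasal peaks (squares) and distance in kb along the x axis; filled symbols are overlapped by a peak of the other list and open symbols are not. The Ihh peaks fall at 2 separate places, the Pthlh window holds 1 nasal peak, no peak in the Pth1r window is filled, and most Ptch1 peaks stand within a stretch of 16.3 kb.

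The window of Ihh, the ligand of the loop, had 4 rib peaks at 2 places, and 1 peak of each place was shared with nasal cartilage. All 4 were Class II, the class of 75.4% of rib peaks. Around the first place, the rib list had chr1:75071545-75071696, 152 bp wide and at place 2940 in the rib list, the earliest of any rib peak in the 4 windows. It lay wholly inside the nasal peak chr1:75071479-75071712, at place 8449 in the nasal list, with centres 25 bp apart. A further rib peak, chr1:75068841-75069232, lay 2.31 kb from it at place 22635. At the second place, the rib peak chr1:75011193-75011300, at place 13555, lay inside the nasal peak chr1:75011148-75011309, at place 13859 of its own list, with centres 18 bp apart. The neighbouring rib peak chr1:75011623-75012056, at place 18462, lay 0.313 kb from the same nasal peak without sharing a base. It was 434 bp wide and wider than 98.7% of rib peaks, and the other rib peak without a nasal partner, 392 bp wide, was wider than 97.3%. The 2 shared rib peaks were narrower, at 152 and 108 bp, beside a median of 180 bp over the whole rib list. The Ptch1 window did not show this order. There the shared rib peaks were 215 and 127 bp wide and the unshared ones 88, 166 and 110 bp.

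At Ihh, 2 of 4 rib peaks were overlapped by a nasal peak, against 42.8% of all rib peaks and 34.4% of Class II peaks. Both nasal peaks there were overlapped by a rib peak, against 68.2% of all nasal peaks. The peaks shared at Ihh stood earlier in the rib list than the unshared ones. The lists were divided by place into 10 equal bins. Of Class II peaks in the same bin of the rib list, nasal peaks overlapped 57.9% for the shared peak at place 2940 and 27.6% for that at place 13555, against 18.6% and 12.1% for the unshared peaks at places 18462 and 22635. In the RefSeq order of protein-coding genes, Ihh stands between Cfap65 and Nhej1. Enhancers of mouse Ihh are known in introns of Nhej1, which encodes a DNA repair factor. Whether any of these peaks meets such an enhancer was not analysed here.

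The window of Ptch1, the hedgehog receptor, held the group with the most peaks among the 4 windows. The earliest-listed nasal peaks in that group had no rib counterpart. From chr13:63653042 to chr13:63669385, 5 nasal peaks followed each other at gaps of at most 5.84 kb. The whole nasal list had 141 chains of at least 5 peaks spaced at most 10 kb apart, which held 4.89% of its peaks. The group at Ptch1 reached 5 only because 2 of its peaks, which shared 151 bp, were counted separately. The rib list had 3 peaks in the same stretch, spanning 14.6 kb, with gaps of 5.90 and 8.27 kb. Rib chains of at least 3 peaks numbered 1958 and held 28.3% of the rib list.

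Within this stretch, the first rib peak, chr13:63653163-63653377 (Class II, place 9908), shared bases with 2 nasal peaks. These were chr13:63653042-63653360, at place 16742, and chr13:63653210-63653462, at place 12190, which shared 151 bp with each other. Adjacent nasal peaks shared bases in 168 pairs of the whole nasal list. The second rib peak, chr13:63659282-63659408 (Class II, place 11216), shared 106 bp with the nasal peak chr13:63659303-63659478, at place 3386, and their centres lay 45.5 bp apart. Next came the nasal peak chr13:63664451-63664686, at place 2871, which lay 2.99 kb from the nearest rib peak. The last nasal peak of the group, chr13:63669282-63669385, stood at place 1346, in bin 1 of the nasal list, and was the earliest of any nasal peak in the 4 windows. Its nearest rib peak, 1.52 kb away, was the Class I peak chr13:63667677-63667764, 88 bp wide and at place 27021, in bin 10 of the rib list. Of nasal peaks in the same bin of their list, rib peaks overlapped 93.1% for the peak at place 1346 and 88.7% for that at place 2871. These 2 nasal peaks were therefore unshared in a part of the list where most peaks are shared.

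**Figure D3:**
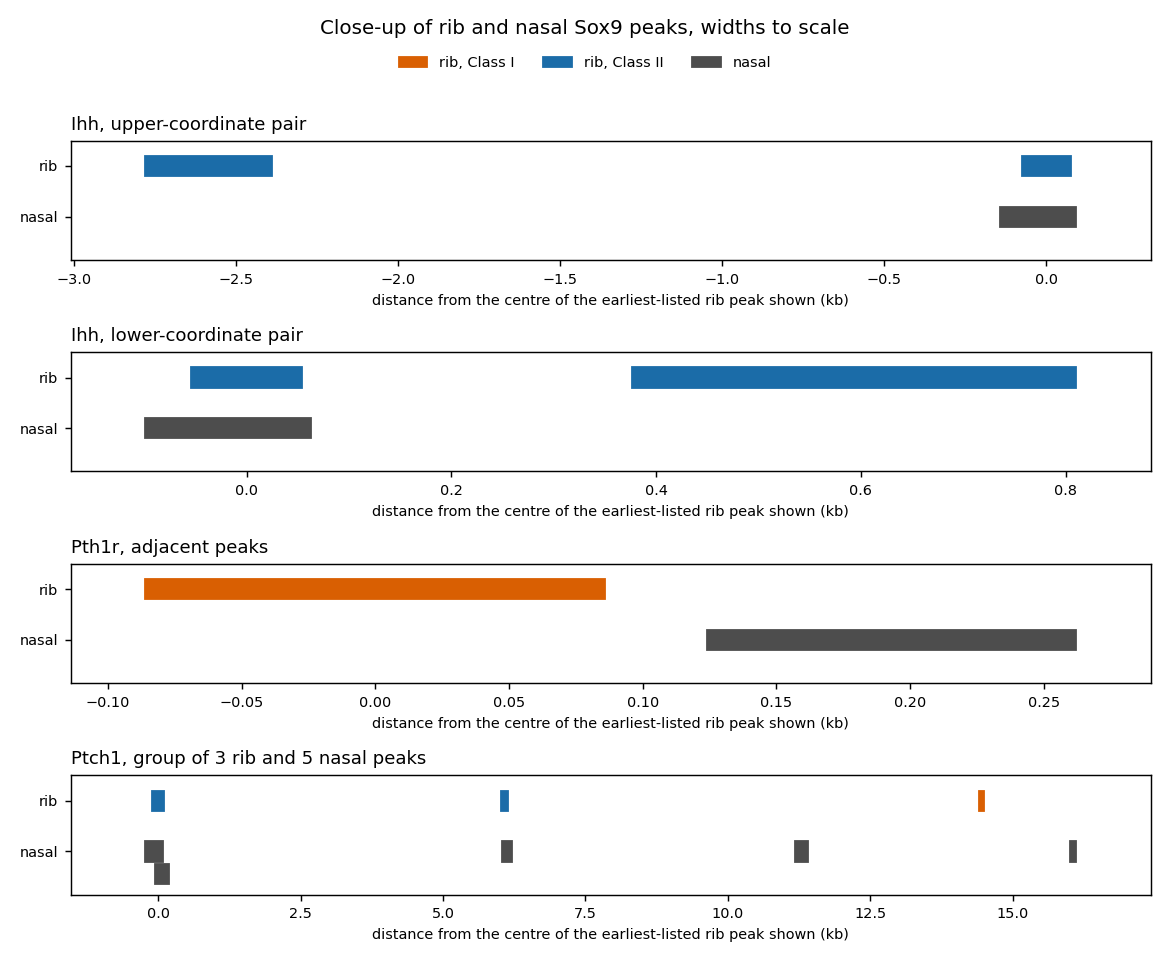
Rectangles show rib peaks above nasal peaks at their true widths, at both Ihh places, at the adjacent peaks of Pth1r and in the Ptch1 group; the x axes give distance in kb from the centre of the earliest-listed rib peak shown. The lowered nasal rectangle in the Ptch1 panel is the peak at place 12190, moved down because it shares 151 bp with its neighbour, and the rightmost 2 nasal rectangles have no rib peak above them.

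Outside the group, the Ptch1 window held 2 rib peaks and 1 nasal peak, none of them shared. The rib peaks chr13:63744024-63744189 and chr13:63758616-63758725 were Class II, at places 6292 and 6819, earlier in the rib list than any rib peak of the group. Their nearest nasal peak was chr13:63719915-63720135, at place 15065 of the nasal list, 23.9 and 38.5 kb away. Of Class II peaks in the same bin of the rib list, nasal peaks overlapped 43.6%. In all, 2 of 5 rib peaks and 3 of 6 nasal peaks at Ptch1 were overlapped by the other list, against 42.8% of all rib peaks and 68.2% of all nasal peaks. Ptch1 stands between Fancc, a gene of DNA crosslink repair, and Ercc6l2 in the RefSeq order, and the peaks were not assigned to either gene.

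Pthlh, which encodes the PTHrP peptide, had no rib peak in its window. The stretch without a rib peak ran 358 kb, from the Class II peak ending at chr6:147066670 to the Class I peak starting at chr6:147424729. Gaps of at least that length made up 4.30% of the gaps between neighbouring autosomal rib peaks, whose median was 23.1 kb. A window without a rib peak is common at this width, as 39.0% of autosomal windows of 240 kb held none. The nasal list had 1 peak, chr6:147209442-147209645, at place 17411 of 17440, 143 kb from the nearest rib peak. The gene's neighbours in RefSeq are Klhl42 and Ccdc91.

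The window of Pth1r, which encodes the PTHrP receptor, had 1 rib peak, of Class I, and this peak lay beside a nasal peak without touching it. The rib peak chr9:110683735-110683906 was 172 bp wide and at place 16586. The nasal peak chr9:110683945-110684082 was 138 bp wide and at place 7700, the earliest nasal place in this window. A gap of 38 bp separated them and their centres lay 193 bp apart, so the rib peak counts as unshared at 1 bp of overlap and as shared when centres within 200 bp or gaps of up to 1 kb count. Of Class I peaks in the same bin of the rib list, nasal peaks overlapped 71.5%.

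The other nasal peaks at Pth1r formed a chain of 3 over 13.2 kb, between 38.0 and 51.1 kb from the nearest rib peak. These were chr9:110632560-110632588 at place 16053, chr9:110635280-110635464 at place 13794 and chr9:110645444-110645745 at place 17416, in bins 10, 8 and 10 of the nasal list. The first was 29 bp wide, and 252 nasal peaks were as narrow or narrower. The third was 302 bp wide. Nasal chains of at least 3 peaks numbered 910 and held 19.1% of the nasal list. Pth1r stands between Ccdc12 and Myl3 in the RefSeq order, and which gene these peaks lie nearest was not determined.

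**Figure D4:**
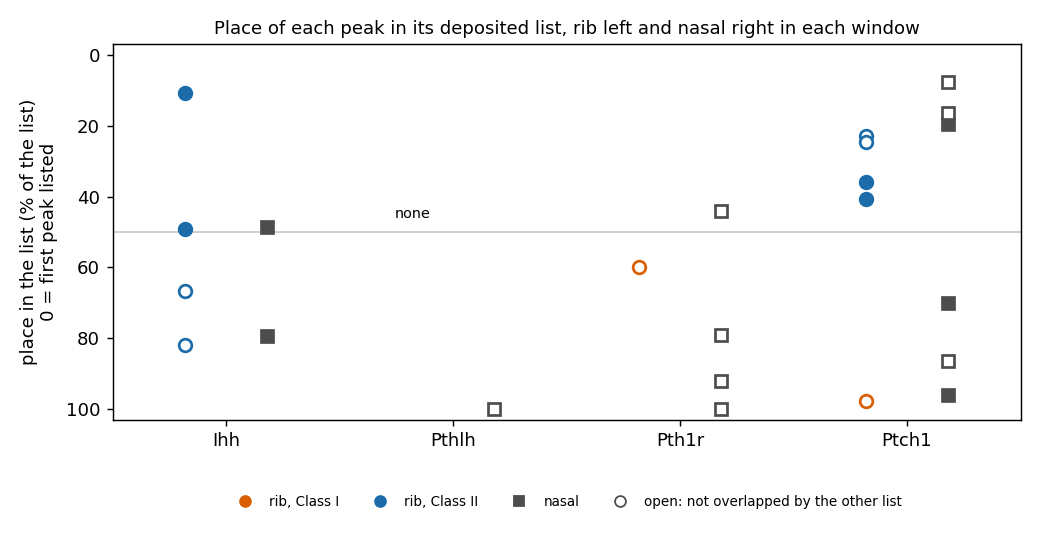
Each symbol is 1 peak, placed by its position in the deposited list as a percentage of that list (0 at the top is the first peak listed), with rib left and nasal right in each window; filled symbols are overlapped by the other list. The nasal peaks of Ptch1 nearest the top are at 7.72%, 16.5% and 19.4% of the list, whereas the single nasal peak of Pthlh is at 99.8%.

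Across the 4 windows, rib peaks were overlapped by nasal peaks about as often as in the whole list. The share was 4 of 10, or 40.0% (95% exact binomial interval 12.2% to 73.8%), against 42.8%. All 4 were Class II, so 4 of 8 Class II members were overlapped (15.7% to 84.3%), against 34.4% of all Class II peaks. Of Class I members, 0 of 2 were overlapped (0% to 84.2%, which holds the 68.8% of all Class I peaks). These include the Pth1r rib peak, which lay 38 bp from a nasal peak. Of the nasal members, 5 of 13 were overlapped by a rib peak, or 38.5% (13.9% to 68.4%), against 68.2% of all nasal peaks, which lies just inside the interval. This gap depended on the overlap rule. With at least 50% of both peaks shared, the share was 38.5% of the nasal members, against 45.1% of all nasal peaks. With gaps of up to 1 kb counted, it was 46.2% of the nasal members (19.2% to 74.9%), against 78.1% of all nasal peaks, which lies outside that interval. With centres within 200 bp counted, it was again 46.2% (19.2% to 74.9%), against 69.0% of all nasal peaks, which lies inside that interval. Class I made up 2 of 10 rib members, with an interval from 2.52% to 55.6%, against 24.6% of all rib peaks. Neighbouring peaks are not independent, so these intervals are too narrow.

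Members were found both early and late in their lists. None of the 10 rib peaks was in bin 1 of the rib list, where the 95% exact interval of 0% to 30.8% holds the 10.0% of all rib peaks, and 6 were in its first 50% (26.2% to 87.8%), with a median place of 12385.5 against 13828.5 over the whole list. Of the 13 nasal peaks, 5 were in the first 50% of the nasal list (13.9% to 68.4%, which holds 50%), with a median place of 13794 against 8720.5. The nasal peaks of Pthlh and Pth1r supplied 4 of the 8 in the later part. The sources used here do not say by what measure the lists are ordered. Member widths ranged from 88 to 434 bp in the rib list and from 29 to 319 bp in the nasal list, with medians of 159 and 204 bp against 180 and 182 bp over the whole lists.

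The window edges set part of these counts. At Ptch1 the outermost rib peak lay 1.33 kb inside the upper edge and the next rib peak 20.3 kb outside it. Beyond the lower edge of that window, a Class I rib peak overlapped by a nasal peak lay 17.1 kb outside. At Ihh the outermost rib peak lay 8.38 kb inside, and the nearest rib peak beyond either edge 36.4 kb outside. At Pthlh a Class II rib peak lay 13.5 kb outside the window and no rib peak inside. At Pth1r the single rib peak lay 26.2 kb inside the edge, and a Class II rib peak at place 3277 lay 31.3 kb outside it.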

How the data were processed

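Sox9 ChIP-seq peak lists were analysed for 1 rib and 1 nasal library. Per the labels' protocols, cells were fixed with 1% formaldehyde for 10 minutes, 20000000 cells entered each precipitation, chromatin was sheared to 100 to 600 bp, and libraries had 18 cycles of PCR. The authors deposited 4 lists of start and end positions in bp, without height, fold or significance. The build is mm9, per the submitters' processing notes. All 4 list names carry an FDR tag, and that of the whole rib list adds the word unfiltered, which the nasal name lacks. Whether the rib and nasal lists were filtered alike was not determined. No source used here names the aligner, the peak caller or the control library. The other 11 libraries were not analysed here. The last Class I line, separated by spaces, was read like the others. Starts are printed with 1 added.

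Overlap meant at least 1 shared bp. Shares have 95% exact (Clopper-Pearson) intervals. No test was run, as each group is 1 library. Same-width windows ran end to end from the first to the last peak of each autosome. The rule was to name Class I, earliest-listed, widest and clustered peaks; with so few, every peak in the windows is named. The members, gene lists and motifs were chosen with earlier results of these data known. Overlap calls were tested on simulated data and differed from bedtools 2.31.1 for 0 of 45096 peaks. Alternatives were other overlap rules, list lengths, window edges, tilings, windows left out and a shorter SOX core. Scripts ran on Python 3.11.15 with scipy 1.17.1, numpy 2.4.6, matplotlib 3.10.9 and pandas 2.3.3.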

Additional observations from a re-analysis of the deposited data

How the results depend on the processing

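Of 69 recomputed values, 51 stayed within their interval or within 1.5 times their count. The intervals are wide, so a share could shift far and still count as unchanged. Taking only the first 50% of each list can only lower a count. The tally is therefore no measure of stability. The sum of rib peaks over the windows was 6 with each window 20 kb shorter at both ends, 18 with each 50 kb longer, and 6 in the first 50% of the list. The sum of nasal peaks was 5 in the first 50% of the list and stayed between 12 and 17 with moved edges. In the first 50% of the rib list, Class I made up 0% of 6 members, against 18.2% of that part of the list. With the core ACAAT in place of AACAAT, 1 member gene had a match. The rib share overlapped by nasal peaks ranged from 33.3% to 60%, and the nasal share from 33.3% to 47.1%. The rib share of all peaks ranged from 33.3% to 54.5%. Whole-list shares also depended on the overlap rule and list length. With gaps of up to 1 kb counted, the 60% of rib members stood beside 49.9% of all rib peaks. With at least 50% of both peaks shared, 40% stood beside 28.4%. In the first 50% of each list, the rib share of 54.5% stood beside 61.3%. With the rib list cut by place to the nasal length, 35% stood beside 50%. With windows 50 kb longer, Pthlh had 1 rib peak and Pth1r 3. No paired analysis was possible because each group is 1 library. Peak strength and depth are unknown, and 10 rib and 13 nasal peaks give wide intervals.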
